A study of Mus musculus with 12 samples.

Results

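The BAF complexes, the mammalian SWI/SNF chromatin remodellers, were described here through the transcripts of 10 subunit genes while mouse P19 cells turned into neuron-like cells. The 10 genes were Smarca2, Smarca4, Smarcc1, Smarcc2, Smarcd1, Smarcd3, Actl6a, Actl6b, Dpf2 and Phf10. They were chosen by name, around the exchange of BAF subunits during neurogenesis, though not all of them are known to be exchanged. Their members were all reads of good quality that the authors had assigned to an mRNA of one of these genes. They were 10 of 14042 genes with at least 1 such read, and held 3125 of 4274320 reads. All 10 passed the minimum of 30 reads over all libraries, as did 9309 genes in all.

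P19 is a wild-type mouse embryonal carcinoma line that resembles pluripotent cells of the early embryo. Polyadenylated RNA was sequenced directly on nanopores before induction (D0) and after 2, 4 and 6 days (D2, D4 and D6) in neuronal medium with 500 nM retinoic acid, with 3 replicates a day and 12 libraries in all. D0 cells were in growth medium with serum, so the change of medium and the retinoic acid cannot be told apart. Each of the 13 sequencing runs held 1 day, so run and day cannot be told apart either. The names of the 3 D0 runs carry both the word undifferentiated and the mark D2, and these libraries were taken as D0, as the labels and the authors' replicate column give them.

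A BAF complex uses ATP to move or evict nucleosomes. It is built around 1 of the alternative ATPases Smarca4 (BRG1) or Smarca2 (BRM), with scaffold subunits of the Smarcc and Smarcd families, an actin-like subunit (Actl6a or Actl6b) and a PHD finger subunit of the Phf10 and Dpf family. When neural progenitors leave the cell cycle, the progenitor subunits Actl6a, Phf10 or Dpf2 and Ss18 are known to give way to the neuronal ones Actl6b, Dpf1 or Dpf3 and Ss18l1, and embryonic stem cells are known to carry Smarcc1 in place of Smarcc2.

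Kept reads per library ranged from 120326 to 241064 at D2 and from 252203 to 613756 on the other days. The members had 72 to 155 reads per library at D2 and 167 to 401 on the other days, so D2 values were the least precise. The labels of the culture were checked against marker genes. Of 6 markers of pluripotent cells, Dppa5a and Zfp42 had no read in any library, and the summed level of the list was 1692 to 2019 CPM (reads per 1000000 reads) at D0, 0 to 12 at D2, 0 at D4, then 0 to 2.71 at D6. The 6 neuron markers (Tubb3, Map2, Stmn2, Dcx, Gap43 and Elavl3) summed to 524 to 556 CPM at D0 and 2434 to 2646 at D6, and those of neural progenitors (Sox1, Sox2, Pax6, Nes, Vim and Fabp7) to 689 to 724 and 2439 to 2875. At D2 the sums were 290 to 498 CPM for neurons, below D0, and 823 to 1088 for progenitors. The progenitor sum at D6 lay mostly on Vim (mean of 377 CPM at D0 and 1787 at D6) and Fabp7 (3.42 and 557), while Sox2 was lower (263 and 199). The markers of glia, muscle, endoderm and fibroblasts were at or near 0, with the highest sum, 10.5 CPM, for muscle at D0. In these bulk cultures, fewer cells of a type and less RNA per cell cannot be told apart, and the part of the cell mixture in the results below was not tested.

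3 of the 10 subunit transcripts rose by D6 and 1 fell, where 19.4% of all genes tested rose and 18.2% fell. The neuronal actin-like subunit Actl6b had no read at D0, 1 at D2, 22 at D4, then 36 at D6. Smarcc2 and Smarcd3 were 4.55 and 4.51 times as abundant at D6 as at D0, where 7 of the 10 D0 reads of Smarcd3 were of uncertain origin. Phf10, a subunit of the PBAF form and of progenitor complexes, fell to 0.382 of its D0 level. The paralogs of the 3 that rose, Actl6a, Smarcc1 and Smarcd1, were not called lower at D6, nor was the PHD finger subunit Dpf2, and neither ATPase was called in either direction.

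A microRNA known to act on Actl6a in neurons is miR-9-3p (also called miR-9*), and its mature sequence, the same from 3 loci (Mir9-1 at chr3:88215652-88215673, Mir9-2 at chr13:83738858-83738879 and Mir9-3 at chr7:79505318-79505339, all on the plus strand of GRCm38.p6, from RefSeq), is printed with its seed, bases 2 to 8, in capitals, because Actl6a was followed here.
mmu-miR-9-3p: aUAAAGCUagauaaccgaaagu
The complement of this seed, AGCTTTA, was searched on the mRNA strand of the longest annotated 3′ UTR of each gene (GENCODE release M21, GRCm38). It was found in 2373 of 21022 genes (11.3%) and in 3 of the 10 members, Actl6a, Smarca2 and Smarcc1. The sites are printed with their flanks, 30 bases each, and with the match in capitals.
Actl6a, base 38 of a 3′ UTR of 371 bases (chr3:32726629-32726658): tcaacgtctgtAGCTTTAgtacactcagga
Smarca2, base 132 of a 3′ UTR of 952 bases (chr19:26777491-26777520): catctagaactAGCTTTAgggtagtgccag
Smarcc1, base 831 of a 3′ UTR of 2396 bases (chr9:110238602-110238631): gcaaagagcacAGCTTTAcaacaagccctt
Smarcc1, base 1659 of the same 3′ UTR (chr9:110239430-110239459): gtgtattttaaAGCTTTAtgtatgagagct
All 4 lie on the plus strand within 1 exon. These matches are a description of the letters. MicroRNAs have no poly(A) tail and were not measured.

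For the 4 genes whose transcripts changed by D6, the 250 bases before the RefSeq start (GRCm38.p6) are printed in the direction of transcription, with CCAAT and GGGCGG and their reverse complements in capitals. RefSeq and GENCODE M21 place some starts differently, so the last 26 bases of the Actl6b window, 10 of the Smarcd3 window and 13 of the Phf10 window lie within the main transcript measured here, and the Smarcc2 window ends 58 bases before it.
Actl6b (chr5:137553296-137553545, plus strand): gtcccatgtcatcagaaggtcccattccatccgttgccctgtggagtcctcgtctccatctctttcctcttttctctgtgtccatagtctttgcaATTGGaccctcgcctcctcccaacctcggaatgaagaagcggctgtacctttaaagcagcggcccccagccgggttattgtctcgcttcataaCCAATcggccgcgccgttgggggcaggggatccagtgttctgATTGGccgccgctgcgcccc
Smarcc2 (chr10:128458986-128459235, plus strand): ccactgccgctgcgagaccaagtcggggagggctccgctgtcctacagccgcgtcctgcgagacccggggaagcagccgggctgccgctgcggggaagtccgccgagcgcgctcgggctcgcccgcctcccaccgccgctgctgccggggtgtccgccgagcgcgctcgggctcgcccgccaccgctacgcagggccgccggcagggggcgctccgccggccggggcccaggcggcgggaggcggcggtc
Smarcd3 (chr5:24602003-24602252, minus strand): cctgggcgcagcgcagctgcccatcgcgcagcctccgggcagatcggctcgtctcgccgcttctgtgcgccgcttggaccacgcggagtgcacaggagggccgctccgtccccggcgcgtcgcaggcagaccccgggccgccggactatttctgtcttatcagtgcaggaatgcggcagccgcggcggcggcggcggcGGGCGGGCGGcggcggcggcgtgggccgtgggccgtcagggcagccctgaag
Phf10 (chr17:14961261-14961510, minus strand): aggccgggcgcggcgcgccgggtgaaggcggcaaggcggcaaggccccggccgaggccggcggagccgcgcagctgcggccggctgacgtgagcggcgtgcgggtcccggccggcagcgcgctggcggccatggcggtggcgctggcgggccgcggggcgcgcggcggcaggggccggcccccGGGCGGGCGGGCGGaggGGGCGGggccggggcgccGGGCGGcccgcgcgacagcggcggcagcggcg
The letters CCAAT or ATTGG (the CCAAT box) were present in 33.8% of 32851 promoter windows of this length and in 2 of the 10 member windows. Counted from the RefSeq start, Actl6b held them at -155, -62 and -20, the last of which lies within the measured transcript, and Dpf2 at -101. The letters GGGCGG or CCGCCC (the GC box) were in 32.7% of all windows and in 7 of the 10 member windows, overlapping matches counted, with 5 matches in Phf10, 2 in Smarcd3 and none in Actl6b or Smarcc2. Among these 7, the RefSeq start of Smarca2 lies 143243 bases from the start of its main transcript measured here. That of Smarcd1 lies 158 bases from it. AGGTCA or TGACCT, a half-site of retinoic acid receptors, was in 14.0% of all windows and in none of the 10, and CAGATG or CATCTG, an E-box of proneural factors, in 14.4% and in none of the 10. G and C made up 58.0% of the Actl6b window, 76.0% of that of Smarcd3, 80.8% of that of Smarcc2 and 88.4% of that of Phf10, against a median of 52.4% over all windows. Promoter activity was not measured, and the cause of each change was not tested.

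**Figure D1:**
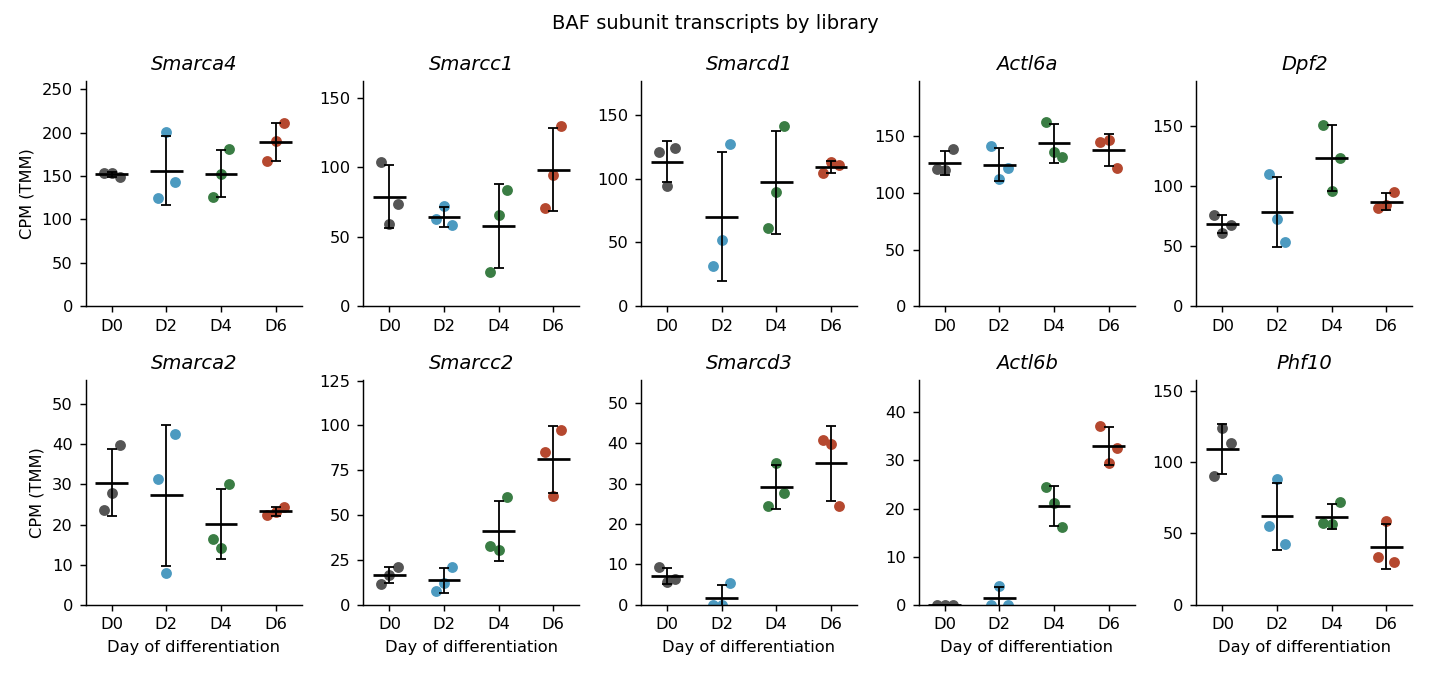
Reads per 1000000 reads (CPM), scaled by the trimmed mean of M-values (TMM), of the 10 subunit genes in each of the 12 libraries. Points are libraries, the horizontal line is the mean of the day and the bar its SD (n = 3), and each panel has its own axis starting at 0. Actl6b, Smarcc2 and Smarcd3 stand higher in all D4 and D6 libraries than in any D0 library, and Phf10 lower.

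Levels are given in CPM after TMM scaling. A direct RNA read is 1 molecule whatever its length, so levels of different genes compare as molecules, up to molecules that were lost or misassigned. Differences are log2 fold changes with SE from limma-voom over all 12 libraries, with p-values adjusted by Benjamini-Hochberg over the 9309 genes tested and called at 0.05. At D6 against D0, 3 members were higher and 1 lower, where 19.4% of all genes tested were called higher and 18.2% lower. At D4 4 were higher and 1 lower (12.6% and 12.7% of all genes), and at D2 no member was called (10.8% of all genes in either direction). By this method 3 members had an unadjusted p under 0.05 at D2, as did 23.5% of all genes tested. All these comparisons share the D0 libraries. The median log2 change of the 10 members was 0.35 at D6 and 0.09 at D4, against 0.02 and 0.00 over all genes tested. The member median was the same with Actl6b set at its ratio to the upper limit at D0, given below. Of the 10 members, 5 had all D6 libraries above all D0 libraries, and 1 had all below, where 23.6% and 22.9% of all genes did.

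The actin-like subunits Actl6a (BAF53A) and Actl6b (BAF53B) sit beside the ATPase, and Actl6b is known as neuron-specific. Actl6b (chr5:137553517-137569582, plus strand) had 0 reads in each D0 library, 0, 1 and 0 reads in the D2 libraries, 6, 9 and 7 at D4, and 10, 14 and 12 at D6. These were 24.5, 21.1 and 16.2 CPM at D4 and 37.1, 29.4 and 32.5 at D6, so every D4 and D6 library stood above every D0 and D2 library. The upper limit that 0 of 1582131 D0 reads allows is 3 reads over the D0 group, or 2.09 CPM. Against it the pooled level of Actl6b was 9.56-fold higher at D4 and 15.5-fold higher at D6 (adjusted p of 5.47e-07 and 3.32e-09, limma-voom). These ratios leave out the counting error of the D4 and D6 reads. The step from D2 to D4 was called as well (adjusted p = 0.0256, limma-voom, beside 3.03% of all genes called), and that from D4 to D6 was not (log2 change 0.67 ± 0.37 SE, adjusted p = 0.28). Of its 59 reads, 58 fell on 1 protein-coding transcript, ENSMUST00000139395.7.

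Actl6a (chr3:32706298-32726973, plus strand), whose 3′ UTR carries the miR-9-3p match shown above, had no called change. It had 121, 120 and 139 CPM at D0, 141, 112 and 122 at D2, 163, 136 and 132 at D4, then 145, 147 and 122 at D6, and the days overlapped. The log2 change at D6 was 0.12 (95% interval -0.23 to 0.47, adjusted p = 0.615, limma-voom). Of the reads of both genes, Actl6b made up 0% at D0, 1.15% ± 1.99 at D2, 12.5% ± 1.34 at D4, then 19.4% ± 2.37 at D6 (SD, n = 3).

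The Smarcc subunits are paired scaffold proteins at the core of the complex. Smarcc2 (BAF170, chr10:128459248-128490482, plus strand) had 5, 9 and 10 reads at D0, 1, 3 and 4 at D2, 8, 13 and 26 at D4, then 23, 29 and 36 at D6. Its levels were 11.8, 16.7 and 21 CPM at D0, 7.84, 12 and 21.2 at D2, 32.6, 30.5 and 60.3 at D4, then 85.4, 60.8 and 97.5 at D6. The D2 libraries overlapped those of D0, and the lowest D6 library was above the highest D4 library. Smarcc2 rose by 1.27 ± 0.38 (log2, SE) at D4 and by 2.19 ± 0.34 at D6 (adjusted p of 0.00831 and 4.11e-07, limma-voom). Smarcc2 was also the 1 member called between D4 and D6 (log2 change 0.92 ± 0.28 SE, adjusted p = 0.0288, limma-voom, beside 8.36% of all genes called). The D4 call was lost without D4 replicate 3 (0.94, adjusted p = 0.111) and with a mapping quality of at least 10 (1.01, adjusted p = 0.15).

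Smarcc1 (BAF155, chr9:110117708-110240178, plus strand) had 104, 59.3 and 73.5 CPM at D0, 62.7, 72.2 and 58.4 at D2, 24.5, 65.6 and 83.5 at D4, then 70.5, 94.4 and 130 at D6. The days overlapped, and the log2 change at D6 was 0.37 (95% interval -0.10 to 0.84, adjusted p = 0.219). Smarcc2 made up 18.1% ± 6.86 of their summed reads at D0, 17.4% ± 8.22 at D2, 43.6% ± 12.8 at D4, then 45.6% ± 8.14 at D6 (SD, n = 3).

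The Smarcd subunits (BAF60) link the complex to transcription factors, and Smarcd3 (BAF60C) is known from heart, muscle and neurons. Smarcd3 (chr5:24590818-24624411, minus strand) had 4, 3 and 3 reads at D0, 0, 0 and 1 at D2, 6, 15 and 12 at D4, then 11, 19 and 9 at D6. These were 9.48, 5.56 and 6.30 CPM at D0, 24.5, 35.2 and 27.8 at D4, and 40.8, 39.8 and 24.4 at D6. Every D4 and D6 library stood above every D0 library, and D4 and D6 overlapped. The log2 change was 1.98 ± 0.48 (SE) at D4 and 2.17 ± 0.47 at D6 (adjusted p of 0.00109 and 1.54e-04, limma-voom). From D2 to D4 it was 2.96 ± 0.67 (adjusted p = 0.00314, limma-voom), a size that depends on the prior count with 1 read at D2. At D6 it was 3.37 without 3 transcripts whose alignments share a start, which leaves 3 of the 10 reads at D0. The change between D4 and D6 did not pass (0.19, 95% interval -0.49 to 0.87, adjusted p = 0.807).

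Smarcd1 (BAF60A, chr15:99702129-99713991, plus strand) had 121, 94.5 and 124 CPM at D0, 31.4, 52.2 and 127 at D2, 61.2, 89.1 and 141 at D4, then 104, 113 and 111 at D6. The spread was widest at D2 and D4. The log2 change at D6 was -0.01 (95% interval -0.44 to 0.41, adjusted p = 0.97). At D2 it was -0.77 (adjusted p = 0.0972), and without D2 replicate 3 it became -1.29 (adjusted p = 0.0309). Smarcd3 made up 5.89% ± 1.25 of the reads of both genes at D0, 1.33% ± 2.31 at D2, 24.4% ± 6.93 at D4, then 24.1% ± 5.37 at D6 (SD, n = 3).

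The PHD finger subunits read modified histone tails. Phf10 (BAF45A, chr17:14945009-14961273, minus strand) had 38, 67 and 54 reads at D0, 7, 22 and 8 at D2, 14, 24 and 31 at D4, then 9, 28 and 11 at D6. Its levels were 90.1, 124 and 113 CPM at D0, 54.9, 88.3 and 42.5 at D2, 57.1, 56.3 and 71.9 at D4, then 33.4, 58.7 and 29.8 at D6. All libraries of D2, D4 and D6 lay below all D0 libraries. Phf10 fell by 0.80 on the log2 scale at D4 (SE 0.23, adjusted p = 0.00651, limma-voom) and by 1.39 at D6 (SE 0.26, adjusted p = 1.81e-05). The change at D2 was -0.77 ± 0.29 SE (adjusted p = 0.075), and the D4 call was lost without D4 replicate 2 (-0.70, adjusted p = 0.0544).

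Dpf2 (BAF45D, chr19:5896516-5913010, minus strand) had 75.8, 61.1 and 67.2 CPM at D0, 110, 72.2 and 53.1 at D2, 151, 96.1 and 123 at D4, then 81.7, 83.9 and 94.7 at D6. The D4 and D6 libraries all stood above the D0 libraries, and D6 below D4. Dpf2 rose by 0.80 ± 0.21 (log2, SE) at D4 (adjusted p = 0.00267, limma-voom), and its change of 0.37 at D6 did not pass (95% interval -0.08 to 0.81, adjusted p = 0.198). The D4 call was lost with a mapping quality of at least 10 (1.09, adjusted p = 0.122). Phf10 made up 61.4% ± 6.48 of the reads of Phf10 and Dpf2 at D0, 44.3% ± 10.8 at D2, 33.8% ± 5.46 at D4, then 31.4% ± 8.87 at D6 (SD, n = 3), so that Phf10 was the more abundant of the pair at D0 and Dpf2 at D4 and D6. Both are known as progenitor subunits, so this share does not describe an exchange of a progenitor subunit for a neuronal one.

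The ATPases hydrolyse ATP, and each complex holds 1 of them. Smarca4 (chr9:21616169-21704230, plus strand) had 154, 154 and 149 CPM at D0, 125, 201 and 143 at D2, 126, 152 and 181 at D4, then 167, 191 and 211 at D6. All D6 libraries stood above all D0 libraries, with a log2 change of 0.32 that did not pass (95% interval 0.00 to 0.65, adjusted p = 0.113). Smarca2 (chr19:26605050-26778322, plus strand) had 23.7, 27.8 and 39.9 CPM at D0, 31.4, 8.03 and 42.5 at D2, 16.3, 14.1 and 30.1 at D4, then 22.3, 23.1 and 24.4 at D6. Its days overlapped, and the log2 change at D6 was -0.33 (95% interval -1.07 to 0.41, adjusted p = 0.517). Smarca4 had more reads than Smarca2 in every library, and Smarca2 held 16.6% ± 4.04 of their reads at D0 and 11% ± 0.727 at D6 (SD, n = 3). Of the 107 Smarca2 reads, 30 and 23 were assigned to ENSMUST00000112637.9 and ENSMUST00000207054.1 (1962 and 2333 bases). These begin inside the gene, at bases 26748403 and 26748406. ENSMUST00000025862.14 (5921 bases), which begins at 26605052, had 16 reads. How many Smarca2 reads came from transcripts of the whole ATPase was not determined.

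The order of the mean levels changed between the ends of the course. At D0 it was Smarca4 (152 CPM), Actl6a (127), Smarcd1 (113), Phf10 (109), Smarcc1 (79.0), Dpf2 (68.0), Smarca2 (30.5), Smarcc2 (16.5), Smarcd3 (7.11) and Actl6b (0). At D6 it was Smarca4 (190), Actl6a (138), Smarcd1 (109), Smarcc1 (98.3), Dpf2 (86.8), Smarcc2 (81.2), Phf10 (40.6), Smarcd3 (35.0), Actl6b (33.0) and Smarca2 (23.2). Neighbours in this order had overlapping libraries at D0 from Actl6a down to Dpf2, and at D6 from Smarcd1 down to Smarcc2 and from Phf10 down to Actl6b. The Smarcc1 libraries also reached into those of Actl6a at D6. The other neighbours did not overlap.

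**Figure D2:**
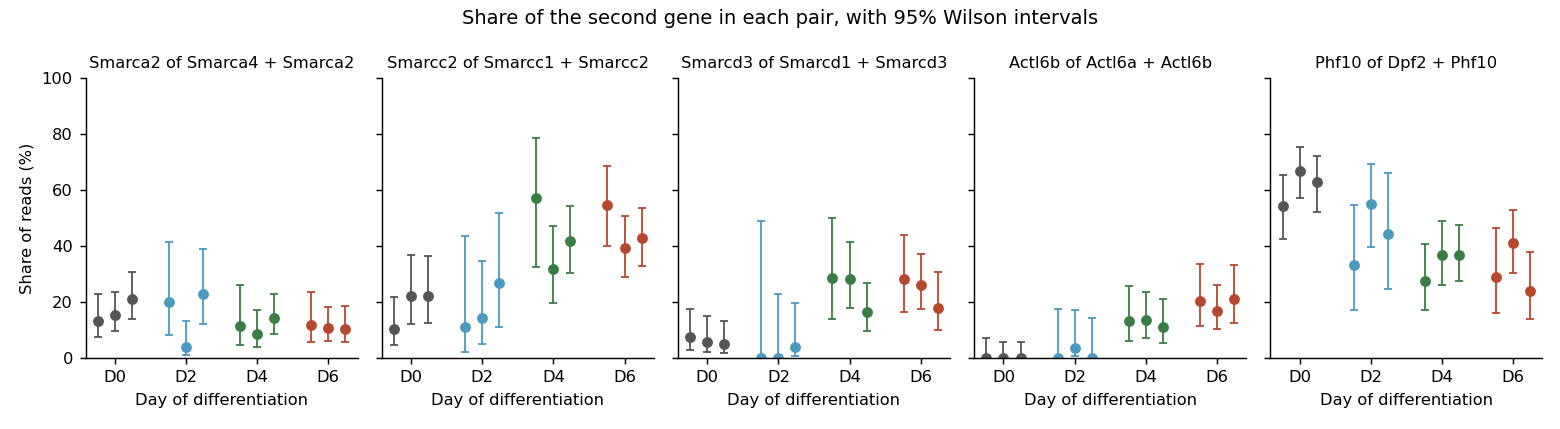
Share of the second gene among the reads of both genes of each pair, in each of the 12 libraries. Points are libraries and bars are 95% Wilson intervals, which cover counting error only. The shares of Smarcc2, Smarcd3 and Actl6b are higher in every D6 library than in any D0 library, and those of Phf10 and Smarca2 are lower.

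The paired shares do not depend on library scaling, and each was tested over the 4 days by an exact permutation test on all 369600 assignments of the 12 libraries to 4 days of 3. The share of Actl6b differed between days (exact permutation p = 6.49e-04, 0.00325 after adjustment over the 5 shares), as did those of Smarcd3 (exact permutation p = 0.00286, adjusted 0.00714), Smarcc2 (exact permutation p = 0.0112, adjusted 0.0141) and Phf10 (exact permutation p = 0.0113, adjusted 0.0141). The share of Smarca2 did not pass (exact permutation p = 0.544). Between D6 and D0 alone, the 2 days did not overlap for any of the 5 shares, and the two-sided exact test gave p = 0.10 for each, the smallest that 3 against 3 libraries allow. The differences were 27.5 percentage points for Smarcc2, 19.4 for Actl6b, 18.2 for Smarcd3, -5.62 for Smarca2 and -30.0 for Phf10. Without D2 replicate 2, whose Smarca2 share was 3.85% (2 of 52 reads, Wilson 1.06 to 13%), the Smarca2 share passed as well (exact permutation p = 0.0228). With a mapping quality of at least 10, the Phf10 share did not (-28.0 points, exact permutation p = 0.0786). The transcripts of the 2 genes of a pair shared 0 to 6 stretches of 21 bases.

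**Figure D3:**
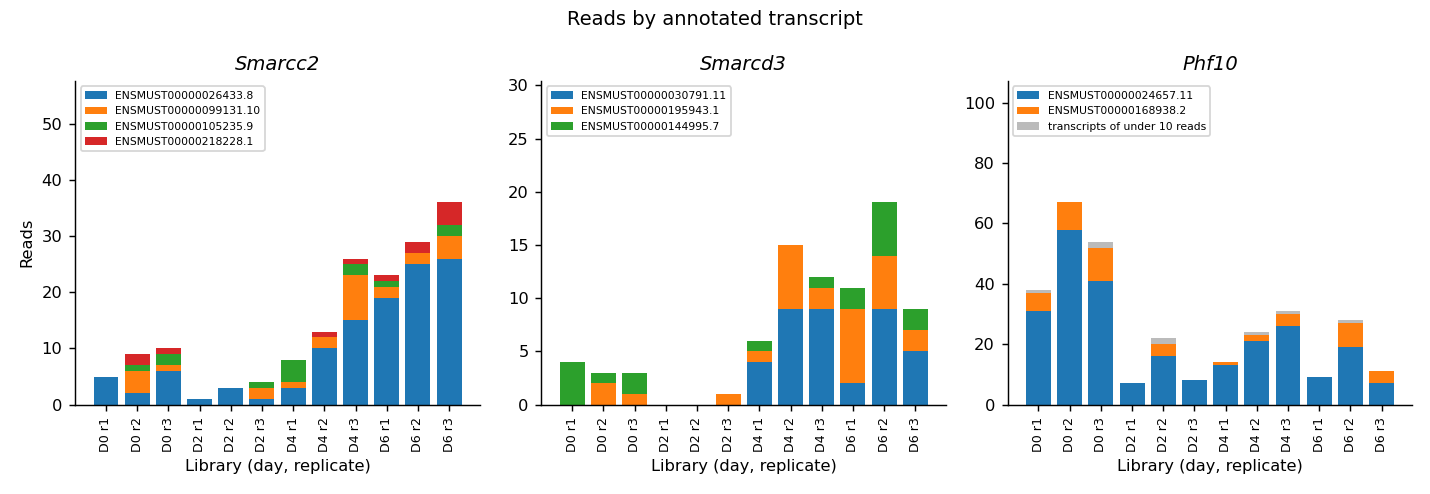
Reads of Smarcc2, Smarcd3 and Phf10 in each library, stacked by the annotated transcript that the authors assigned. For Smarcd3 the transcript ENSMUST00000030791.11 has no read in any D0 or D2 library and 38 at D4 and D6, while the retained-intron transcript ENSMUST00000144995.7 holds 7 of the 10 D0 reads.

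The transcripts behind these gene levels were compared at D6 and D0 in a fit over 12356 transcripts of at least 30 reads, of which 13.5% were called higher and 15.8% lower. The main Smarcc2 transcript, the protein-coding ENSMUST00000026433.8, rose from 13 reads at D0 to 70 at D6 (log2 change 2.80 ± 0.44 SE, adjusted p = 2.94e-06, limma-voom). The other Smarcc2 transcripts with reads, also protein-coding, had 5, 3 and 3 reads at D0 and 8, 3 and 7 at D6. They were under the minimum and were not tested. The protein-coding Smarcd3 transcript ENSMUST00000030791.11 had 0 reads at D0 and D2, 22 at D4 and 16 at D6 (adjusted p = 5.06e-05). Its pooled level was 9.56 times the floor of 3 reads over the D0 group at D4 and 6.88 times at D6, counting error at D4 and D6 not included. The window printed above includes its first 10 bases. A second protein-coding Smarcd3 transcript, ENSMUST00000195943.1, had 3, 1, 9 and 14 reads on the 4 days. The split between these isoforms is uncertain, since 47.4% of the reads of the first and 7.4% of those of the second had a mapping quality of at least 10. Phf10 fell on its main transcript ENSMUST00000024657.11, with 130 reads at D0 and 35 at D6 (-1.57 ± 0.29 SE, adjusted p = 4.71e-05). Its transcript with another 3′ end, ENSMUST00000168938.2, annotated as a target of nonsense-mediated decay, had 26 and 12 reads and did not pass (-1.21 ± 0.61 SE, adjusted p = 0.133). None of the 3 Smarca4, 3 Smarcc1, or the single Actl6a, Dpf2, Smarcd1 and Smarca2 transcripts tested passed, with log2 changes of -0.37 to 0.68.

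Part of the D0 level of Smarcd3 rested on reads of uncertain origin. The retained-intron transcript ENSMUST00000144995.7 held 7 of its 10 reads at D0 and 9 of its 39 at D6, and all 18 of its reads had a mapping quality of 0. Of these alignments 12 began within 5 bases of one position, chr5:24592487, which is 3 bases from the annotated 3′ end of a transcript of Chpf2 on the opposite strand. A shared alignment start was also found in Smarcc1 (ENSMUST00000200426.1, 11 reads, at the first base of the transcript) and Smarcc2 (ENSMUST00000218228.1, 12 reads). None of these reads had a mapping quality of 0, and the nearest 3′ end on the opposite strand lay 15732 and 27089 bases away. Without these 3 transcripts, an alternative chosen after seeing the data, Smarcd3 had 3 reads at D0, and its fitted log2 change was 3.37 at D6 (adjusted p = 3.26e-05), a value that depends on the prior count at so few reads. Smarcc2 was 2.24 (adjusted p = 5.80e-07), and the direction and call of all members at D4 and D6 were as before.

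Reads on the main transcripts of Smarca4 and Dpf2 stopped short of the annotated ends of these transcripts. On the 2 main Smarca4 transcripts, the median alignment ended 850 and 863 bases before the annotated 3′ end, and on the main Dpf2 transcript 869 bases before it. At most 1.3% of the reads of these 3 transcripts ended within 50 bases of the annotated end, against 96.6% for Actl6b, 98.5% for Actl6a and 99.5% for Smarcd1. They stopped close to a 3′ end annotated for other transcripts of the same gene. For Smarca4 this is chr9:21703366 (ENSMUST00000174008.7), and for Dpf2 chr19:5897387 (ENSMUST00000118623.1 and ENSMUST00000236970.1). On these transcripts 100.0% of reads ended within 50 bases of the annotated end, so the assignment of reads between transcripts is uncertain. Single isoforms of Smarca4 and Smarca2, and the 2 main ones of Smarcc1, are uncertain by mapping quality. The share of reads with a mapping quality of at least 10 was 12.4% and 0.0% on the 2 main Smarcc1 transcripts and 100.0% on the third (ENSMUST00000197984.4, 58 reads), which has an annotated 3′ end of its own. It was 0.0 to 24.7% on the Smarca4 transcripts and 0.0 to 8.3% on those Smarca2 transcripts with at least 10 reads.

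**Figure D4:**
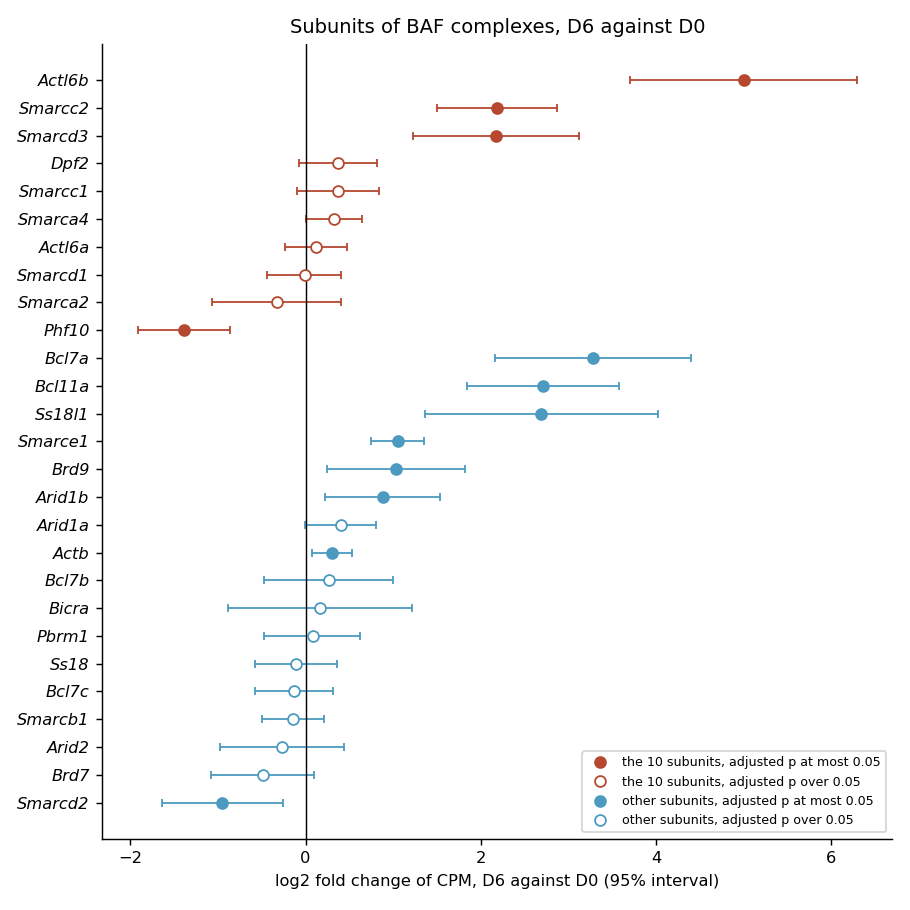
Log2 fold change at D6 against D0 with its 95% interval (limma-voom) for the 10 subunits in red and the 17 other subunits tested in blue. Filled points have an adjusted p of at most 0.05. The value of Actl6b, with no read at D0, depends on the prior count of the fit, and its ratio to the upper limit at D0 is given in the text.

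The other subunits of BAF, PBAF and the non-canonical complex were taken as a list of 21 genes, of which 17 had at least 30 reads. At D6, 7 were higher than at D0 and 1 was lower, and at D4 4 were higher and 1 lower, against the shares of all genes given above. Their median log2 change at D6 was 0.27. The largest changes were those of Bcl7a, a small subunit of the ATPase module (3.51 ± 2.43 CPM at D0 and 41.1 ± 9.62 at D6, SD, log2 change 3.28), of the zinc finger factor Bcl11a (7.90 ± 3.44 and 52.9 ± 7.45, 2.71) and of Ss18l1 (CREST), the neuronal counterpart of Ss18 (2.81 ± 2.49 and 19.5 ± 6.24, 2.69). Their adjusted p-values were 2.34e-06, 6.19e-07 and 8.70e-04 (limma-voom). Ss18 itself had 75.5 ± 9.93 and 71.4 ± 13 CPM and did not pass (log2 change -0.11, adjusted p = 0.754). Smarce1, which binds DNA through an HMG box, rose by 1.05 (adjusted p = 3.97e-08), Brd9 of the non-canonical complex by 1.03 (adjusted p = 0.0343), Arid1b by 0.88 (adjusted p = 0.0292) and Actb by 0.30 (adjusted p = 0.0335). Smarcd2, the third paralog of the Smarcd family, fell by 0.95 (adjusted p = 0.0244). Of the 9 others the log2 change was between -0.49 and 0.40.

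The neuronal PHD finger subunits were near the limit of this depth. Dpf1 had 10 reads and Dpf3 4 reads over all 12 libraries, and with Bicral (20 reads) and Bcl11b (9 reads) they fell below the minimum. Dpf1 averaged 3.42 CPM at D0 and 3.04 at D6, where 3 reads in the pooled D0 libraries correspond to 2.09 CPM, so that a small change of either gene was not detectable.

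A list of 8 regulators known around this exchange of subunits was followed beside the members. Rest represses neuronal genes, those of miR-9 among them, in non-neuronal cells. It had 17.8 ± 3.21 CPM at D0 (SD, n = 3), 1.55 ± 2.68 at D4 (0, 0 and 2 reads) and 9.58 ± 1.88 at D6. It passed at D4 (log2 change -2.98, adjusted p = 4.35e-04, limma-voom), a value that depends on the prior count at so few reads. At D6 it did not pass (-0.77, adjusted p = 0.211, limma-voom), with all D6 libraries below all D0 libraries (22.9% of all genes). Rest rose from D4 to D6 (2.21, adjusted p = 0.0460, limma-voom, beside 8.36% of all genes called). Its corepressors rose at D6, Rcor1 by 1.52 (from 12.4 ± 14.8 to 24.2 ± 6.48 CPM, adjusted p = 0.0144) and Rcor2 by 0.63 (from 163 ± 66.7 to 227 ± 44.8, adjusted p = 0.00628), but for both the D0 and D6 libraries overlapped. Rcor1 had 2.37, 5.56 and 29.4 CPM at D0 and 22.3, 31.5 and 18.9 at D6. The splicing repressor Ptbp1 fell by 1.04 (adjusted p = 2.38e-08), from 411 ± 35.8 to 201 ± 17.9 CPM, and its neuronal paralog Ptbp2 rose by 0.94 (adjusted p = 3.67e-04), from 71.4 ± 27.5 to 135 ± 15. Sox2 fell by 0.39 (adjusted p = 0.0287). The proneural factor Neurog1 had 0 reads at D0, and its pooled D6 level was 56.3 times the floor of 3 reads at D0 (adjusted p = 9.45e-14, limma-voom). Neurod1 went from 1.41 ± 1.25 to 26.2 ± 11.6 CPM (adjusted p = 3.41e-05). Of the 8, 5 were higher and 2 lower at D6, where 19.4% and 18.2% of all genes tested were.

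**Figure D5:**
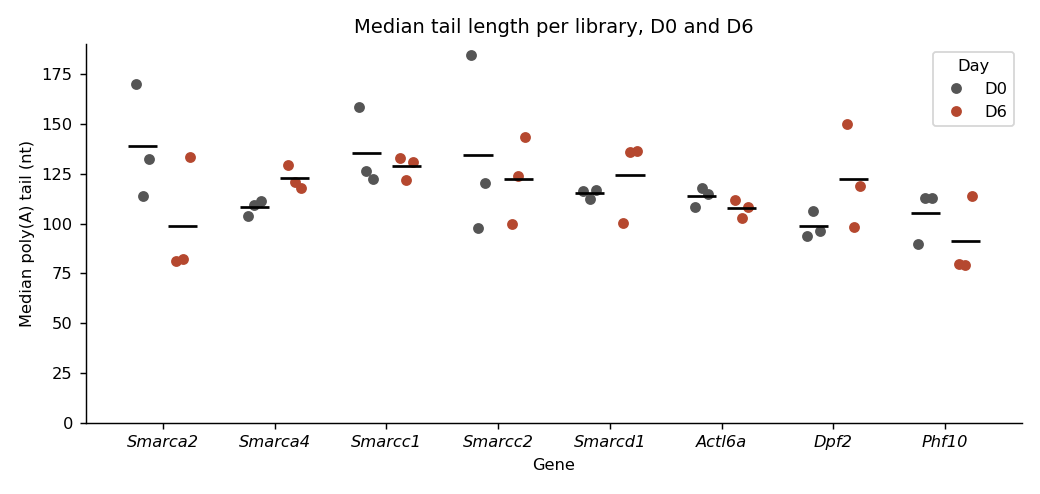
Median poly(A) tail length in nucleotides of 8 subunit genes in each D0 and D6 library. Points are libraries and horizontal lines the mean of the 3 medians. The library medians lie between 79.3 and 185.0 nt, and none of the 8 genes passes the adjusted test between the days, with or without weights equal to the reads.

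Each read also spans the poly(A) tail, the stretch of adenosines at the 3′ end that bears on stability and translation. Tails were compared at D6 and D0 as log2 of the median per gene and library, with limma over 5491 genes with at least 5 reads in each of the 6 libraries. No gene passed an adjusted p of 0.05 (percent called 0, with 613 genes at an unadjusted p of at most 0.05), and so none of the 8 members tested passed. With weights equal to the reads 206 genes were called, none of the 8 members among them (adjusted p of at least 0.425, limma). Smarcd3 and Actl6b had too few reads. The closest was Smarca2, with medians of 170.4, 113.9 and 132.6 nt at D0 (10, 15 and 19 reads) and 81.3, 82.2 and 133.4 nt at D6 (6, 11 and 9 reads), which overlapped (log2 change -0.51 ± 0.23 SE, adjusted p = 0.472, limma). Smarca4 had 103.7, 109.4 and 111.6 nt at D0 and 129.6, 121.1 and 117.8 nt at D6, without overlap (0.18 ± 0.10 SE, adjusted p = 0.556, limma). The 2 genes that changed in abundance and could be tested had overlapping tails. Smarcc2 had a mean median of 134.3 ± 45.4 nt at D0 and 122.7 ± 21.9 nt at D6 (adjusted p = 0.918, limma), and Phf10 105.2 ± 13.3 and 91.1 ± 19.9 nt (adjusted p = 0.676, limma; SD, n = 3). For the other 4 members (Smarcc1, Smarcd1, Actl6a and Dpf2) the log2 change lay between -0.08 and 0.29. The percentages of reads with tails of 30 to 90 nt and under 30 nt did not pass for any of the 8 either, with adjusted p-values of at least 0.464 (limma).

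Library scaling bore on the direction of small changes. With scaling by the library total in place of TMM, the median log2 change of all genes at D6 moved from 0.02 to 0.26, and 69.0% of called genes were higher in place of 51.7% (62.5% and 49.7% at D4, 65.9% and 41.5% at D2). Under it Smarca4 (0.56, adjusted p = 0.00396), Smarcc1 (0.61, adjusted p = 0.0421) and Dpf2 (0.61, adjusted p = 0.0260) passed at D6, while Actl6b, Smarcc2, Smarcd3 and Phf10 kept their direction and call.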

How the data were processed

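Base calling (Guppy), alignment to transcripts of mm10 (minimap2 2.20), tail calling (Nanopolish) and demultiplexing (Deeplexicon) were done by the authors. Their deposited per-read table has 1 line per alignment, with a mapping quality (a score), a barcode confidence (a fraction) and a tail length in nucleotides, not normalized. A second deposited table of the authors' DESeq2 log2 fold changes and adjusted p-values was not used.

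Of 6017105 lines with a barcode, 77.7% had the tag PASS. Those on nuclear mRNAs, pseudogenes set aside, gave 4274320 reads, 120326 to 613756 per library, grouped by the labels. The files used here held no column of counts, so the reads were tallied per gene, and limma-voom (limma 3.58.1, R 4.3.3) was fitted to all 12 libraries with TMM factors (30% and 5% trimmed), a pseudocount of 0.5 reads and at least 30 reads per gene. The fit was tested on simulated data of D6 against D0 over 9251 genes, where it called 12.6% of genes changed 2-fold, 68.0% of those changed 4-fold and 0.0331% of the others. In it 95 genes changed 2-fold and 100 changed 4-fold, with a dispersion that was set and not estimated from these data. In the real fit 3499 genes were called at D6, so these percentages are not the sensitivity of the D6 test. Wilson intervals (95%) cover counting error only, and the floor of 3 reads covers only that of the D0 reads. Shares were tested with Python 3.11.15. Sequences came from RefSeq and GENCODE M21. All 10 members are named, and other subunits where called at D6. The members and lists were chosen with earlier results of these data known, and alternatives are given in the closing section.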

Additional observations from a re-analysis of the deposited data

How the results depend on the processing

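Over the alternatives tried, Actl6b, Smarcc2 and Smarcd3 kept their direction and call at D6 wherever they had enough reads to be tested, and Phf10 kept both except with the libraries thinned to the smallest (-1.07, adjusted p = 0.0541, limma-voom). Thinning left Actl6b and Smarcd3 untested, and a mapping quality of at least 10 left Smarcd3 and Smarca2 untested. No result that was called in either fit changed its direction. Uncalled changes did, at D2 for Smarcd3 (from -0.98 to 0.58 without the 3 transcripts with a shared start), Smarca2 (-0.47 to 0.45 without D2 replicate 2), Smarca4 (0.09 to -0.84) and Dpf2 (0.12 to -0.50) with a mapping quality of at least 10 and Smarcc1 (-0.17 to 0.93, thinned), among others. Thinning also ended the D4 calls of Smarcc2 (0.86, adjusted p = 0.396), Dpf2 (0.98, adjusted p = 0.0948) and Phf10 (-0.60, adjusted p = 0.360). At D2 a call was gained by Actl6b without the filter on low counts (1.90, adjusted p = 0.0188) and by Phf10 with limma-trend and a pseudocount of 2 reads (-0.81, adjusted p = 0.0455). The cause was not tested beyond the smaller number of reads.

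The number of genes called moved by more than 1.5 times in these settings. At D2 it went from 1005 to 1615 without the filter, to 633 with a mapping quality of at least 10, to 282 with thinning and to 646 without D2 replicate 2. At D4 it went from 2356 to 624 with thinning, and at D6 from 3499 to 2201 with a mapping quality of at least 10 and to 1199 with thinning. Leaving out 1 library at a time gave 646 to 1072 genes at D2, 1824 to 2378 at D4 and 2809 to 3546 at D6. It moved the D6 changes to 1.99 to 2.40 for Smarcc2, 2.01 to 2.37 for Smarcd3, 4.90 to 5.07 for Actl6b (fitted) and -1.78 to -1.22 for Phf10. The D6 minus D0 shares lay between 22.9 and 30.7 points for Smarcc2, 16.1 and 21.2 for Smarcd3, 18.5 and 20.7 for Actl6b, -34.9 and -26.3 for Phf10 and -7.24 and -3.36 for Smarca2, which passed over the 4 days without D2 replicate 2 (-5.62 points, exact permutation p = 0.0228). The Phf10 share did not pass with a mapping quality of at least 10 (-28.0 points). For tails, 0 genes were called at D6 in the 6 fits without 1 library, 1 with the mean of log2 lengths, 1 with at least 10 reads in each library and 206 with weights equal to the reads.

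Replicate numbers were shared by the days and by the adapter barcodes. Deviations of libraries with the same number correlated at -0.076 to 0.113 over 5997 genes, so the numbers were not taken as a pairing. With a replicate block 1037 genes were called at D2, 2056 at D4 and 3129 at D6, and no member changed its call.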

Other observations

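Chromatin remodellers outside the BAF family were followed as a list of 30 genes (ISWI, CHD, INO80 and NuRD subunits), of which 29 had at least 30 reads. At D6 against D0, 2 were called higher and 7 lower (limma-voom), beside 19.4% and 18.2% of all genes tested. At D4 none was higher and 7 were lower, beside 12.6% and 12.7% of all genes tested. Their median log2 change was -0.12 at D6 and -0.35 at D4, where that of the 10 BAF members was 0.35 and 0.09. No test between the lists was made.

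The genes with the pattern most like Actl6b over the 12 libraries, by Pearson correlation of log2 CPM across all genes tested, were Fbll1 (r = 0.989), Jpt1 (0.988) and Ina (0.986). Those most like Phf10 were Wdr4 (0.968), Atf1 (0.942) and Noc2l (0.924). These are descriptions over 12 libraries of 4 days, which share depth and run, and were chosen as the highest of all genes.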
